A study of Mus musculus with 8 samples.

Results

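The genes described here are the potassium channel genes other than the Kv4 family, taken as every array probe whose RefSeq symbol begins with Kcn, with the Kv4 pore genes (Kcnd) and their cytoplasmic partners (Kcnip) left out. The rule gave 89 genes, measured by 119 probes, among 20144 named genes with a probe. Of these 89, 87 are protein-coding, and Kcnq1ot1 and Kcnmb4os1 are noncoding transcripts that carry the name without encoding a channel subunit. Kcnrg, which encodes a cytoplasmic regulator, is a member by name only as well. RNA came from dissociated mouse hippocampal neurons that had spent 10 days in culture, received a lentivirus carrying either Flag-tagged Nr4a1 or GFP, and were kept for 6 more days. Nr4a1 is an orphan nuclear receptor and an immediate early gene, and the control cultures carried a lentivirus as well, with GFP in place of Nr4a1. There were 4 arrays per group, joined into 4 pairs by pair labels 1, 3, 4 and 5, which are replicates 1 to 4 below. Replicates 1 to 3 belong to batch 1 and replicate 4 to batch 2. Mouse strain, age, the sex of the animals and the promoter driving the transgene are not given in the sources used here. The labels do not say that replicates came from separate cultures, so p-values rest only on array-to-array spread within these samples, part or all of which may be technical. Each array is a 2-colour array with the culture in Cy5 and a universal mouse reference RNA in Cy3. The level of a gene on an array is therefore the log2 ratio of culture over reference, and every difference is the mean of the arrays labelled Flag-Nr4a1 minus that of the GFP arrays.

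Potassium channels set the resting potential of a neuron, end its action potentials and time its repetitive firing. A voltage-gated channel (Kv) is a tetramer of pore-forming subunits of the Kcna, Kcnb, Kcnc, Kcnq or Kcnh families. The Kcnf, Kcng, Kcns and Kcnv subunits are called electrically silent because they form no channel of their own. They join Kcnb subunits and change how the resulting channel opens and inactivates. Inward rectifiers (Kcnj) and tandem-pore leak channels (Kcnk) carry current near rest, in astrocytes as well as in neurons. Kcnma1, Kcnn and Kcnt channels open with intracellular calcium or sodium, and Kcnab, Kcne and Kcnmb genes encode accessory subunits.

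Testing required a Cy5 signal well above background on 4 or more of the 8 arrays, which held for 68 of the 89 members. A gene is said to have risen or fallen where limma's two-sided adjusted p, over all 21116 features tested, was under 0.05. The probe for Nr4a1 itself read between -2.49 and -1.90 on the GFP arrays and between -2.49 and -1.20 on the arrays labelled Flag-Nr4a1. Its difference of 0.30 ± 0.15 (SE, n = 4 pairs) did not pass the test (limma adjusted p = 0.193) and was positive in 3 of 4 pairs, with replicate 2 at -0.36. Whether this probe lies within the delivered sequence is not given, so it does not check the labels, and the groups are named below by their labels. Between 60.9% and 69.2% of the non-control spots were above background in Cy5, and none was saturated. Neuron markers were present on every array, the mean level of the 15 listed genes lying between 4.25 and 4.37 in GFP and between 4.21 and 4.39 in the Nr4a1-labelled group. Of these 15, 3 rose, 3 fell and 9 did not pass the test, where 24.4% of all features were called. The 4 GFP arrays lie on 1 slide and the Nr4a1-labelled arrays on 2 others, so slide and group cannot be told apart, and with slide as a random block no member passed the test.

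Among the 68 members tested, 9 rose and 13 fell in the Nr4a1-labelled arrays, and 46 did not pass the test. The share called was 32.4% of the members, against 24.4% of all features tested. For rises the shares were 13.2% of members and 12.9% of all features, and for falls 19.1% and 11.5%, and neither pair of shares was tested against each other. Kcnv2 is counted among the 9 but was above background only in the Nr4a1-labelled group, so it entered the test through the group where it is high. Without it, 8 of 67 members rose and 31.3% were called. The called differences in the main fit lay between 0.24 and 0.83 on the log2 scale with a median size of 0.47. These sizes depend on the processing, and the background correction of the main fit pulls ratios of dim probes towards 0. Over all settings Kcns3 ranged from -1.47 to -0.74, Kcnh8 from -2.29 to -0.30, Kcnq1 from 0.50 to 1.39 and Kcng1 from 0.25 to 0.89. With each gene represented by its brightest probe, none reached a 2-fold change in the main fit. That size was reached together with the call by 0.767% of all features. A second probe of Kcng2 lay at that size. The median difference over the 68 members was -0.05, and over all features -0.003. The 4 arrays of each group did not overlap for 19 tested members, against 24.4% of all features. The 19 comprise 17 of the 22 called genes and the uncalled Kcna4 and Kcnh2. All 4 pairs had the same sign for 21 of the 22, the exception being Kcnn3. Kcnv2, which entered through the group where it is high, is counted in the 19, the 17 and the 21. The calls were made from these same pairs, so the shared sign is no separate support for them. With replicate 4 left out, so that only batch 1 entered the fit, 17 of the 22 were called, Kcnv2 among them. The batch 2 pair had the same sign for all 17, but its GFP array lies on the slide of the other GFP arrays. A difference between slides could therefore give the same sign. With replicate 2 left out, 11 members rose and 10 fell, and Kcna1, Kcns1, Kcnt1 and Kcnt2 lost their calls.

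**Figure D1:**
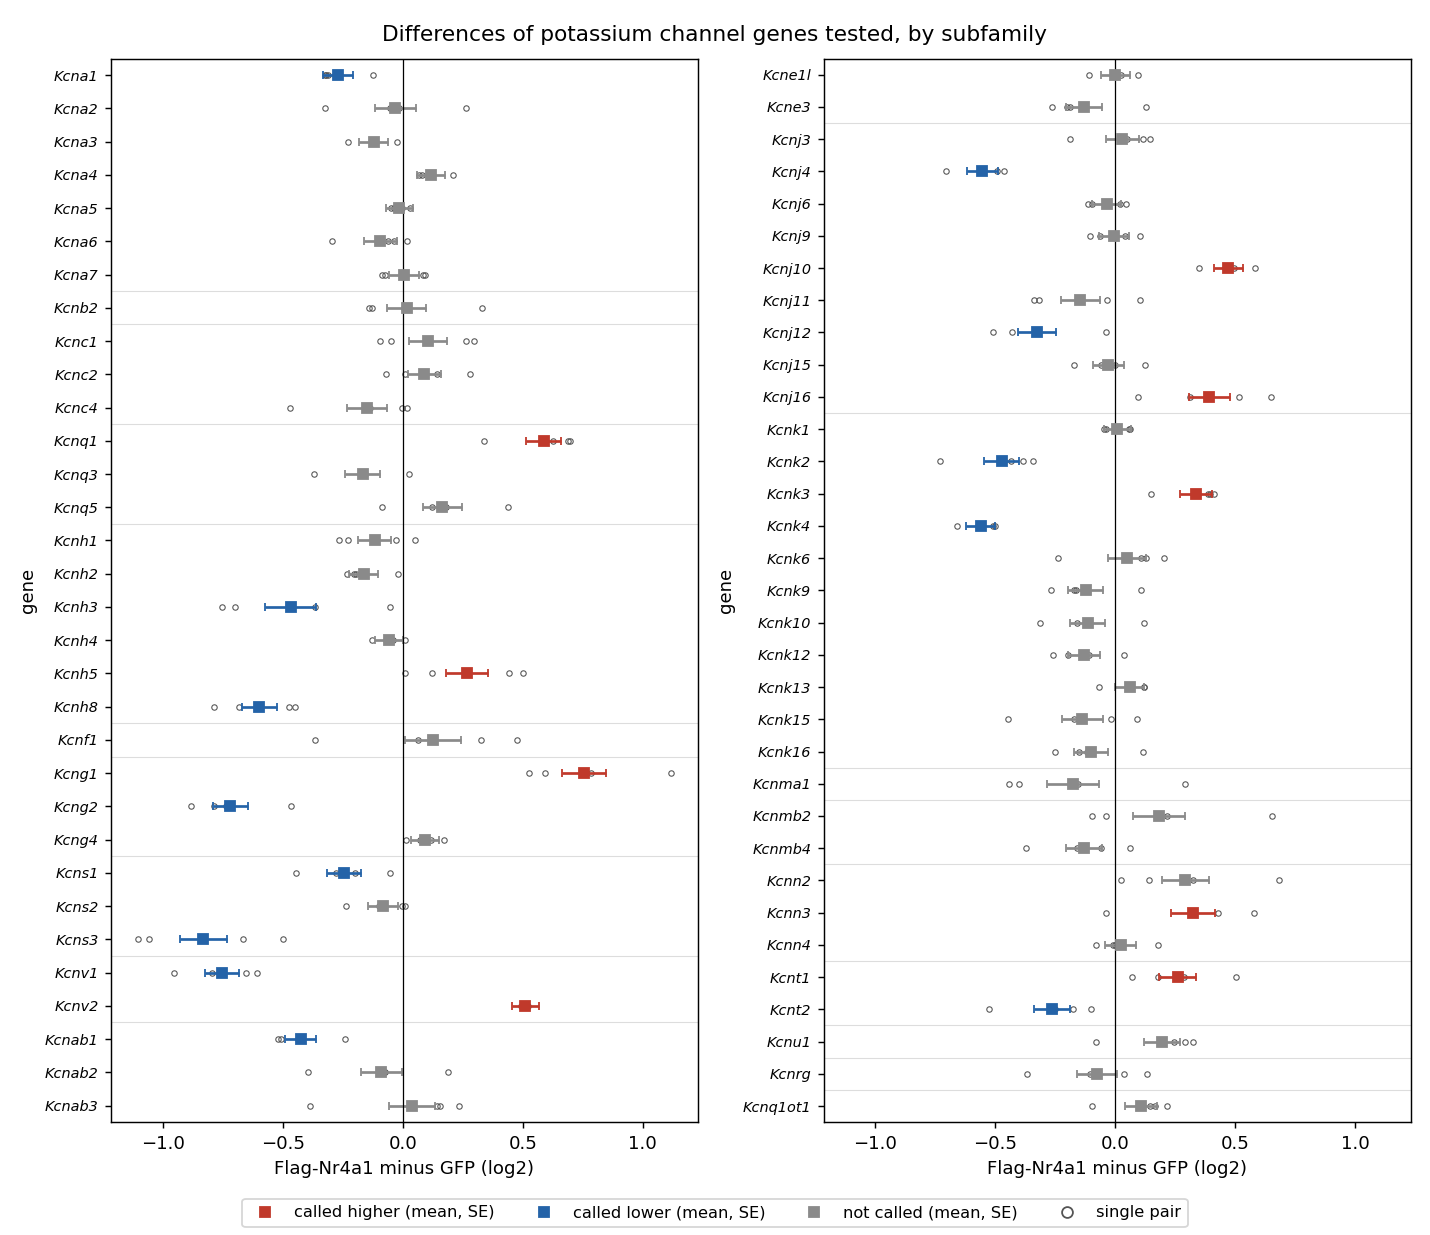
Differences of most of the potassium channel genes tested, Nr4a1-labelled minus GFP arrays on the log2 scale (x axis), grouped by subfamily (y axis). Squares are the fitted mean with its SE over 4 pairs, coloured by call, and open circles are the single pairs. Most genes sit near 0, while the Kcng, Kcns and Kcnv blocks hold differences from -0.83 to 0.76.

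The electrically silent Kv subunits held the largest differences in both directions. Of the 10 members of the Kcnf, Kcng, Kcns and Kcnv families, 9 were tested. Kcns3, Kcnv1, Kcng2 and Kcns1 fell, Kcng1 rose, and Kcnf1, Kcng4 and Kcns2 did not pass the test. Kcnv2, above background in the Nr4a1-labelled group alone, has only a bound. Over all features tested, 24.4% were called, and the silent subunits were not tested against that share. The median size of difference over the other 8 genes was 0.48, against 0.12 over the 23 tested pore-forming Kv subunits and 0.11 over all features. This grouping was made after the values had been seen, and the medians are given as a description with no test. In RNA from a whole culture, fewer cells of a type and less RNA per cell cannot be told apart.

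Kcns3, a silent partner of Kcnb pores in several tissues, showed the largest fall. Its level on the GFP arrays, in order of replicate, was 1.98, 2.23, 2.11 and 1.90, and on the Nr4a1-labelled arrays 1.48, 1.17, 1.01 and 1.23. Every Nr4a1-labelled array lay below every GFP array, a 1.78-fold lower level (-0.83 ± 0.10 SE, n = 4, limma adjusted p = 0.00026). Kcnv1, which suppresses or slows Kcnb currents, read 4.37, 4.09, 4.41 and 4.33 in GFP and 3.72, 3.14, 3.80 and 3.54 in the Nr4a1-labelled group. The groups were again separate, at 1.68-fold lower (-0.75 ± 0.07, limma adjusted p = 5.93e-05), with the lowest value on Nr4a1-labelled replicate 2. Kcng2 levels were 3.47, 3.47, 3.70 and 3.07 on the GFP arrays and 2.59, 2.73, 2.92 and 2.60 on the others. Its fall of 1.64-fold (-0.72 ± 0.07, limma adjusted p = 0.000108) came with a second probe at -1.0 ± 0.07, and no array of one group reached the range of the other. Kcns1 read 0.96, 0.89, 0.89 and 0.89 in GFP and 0.52, 0.69, 0.84 and 0.62 in the Nr4a1-labelled group, where 3 of 4 arrays were above background. This smaller fall (-0.24 ± 0.07, limma adjusted p = 0.0331) was lost when replicate 1, 2 or 4 was left out.

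Kcng1, another silent subunit of the same family as Kcng2, moved the opposite way. It read 2.73, 3.07, 2.94 and 2.95 on the GFP arrays and 3.85, 3.60, 3.53 and 3.74 on the Nr4a1-labelled arrays. The Nr4a1-labelled arrays all lay above the GFP arrays, at 1.69-fold higher (0.76 ± 0.09, limma adjusted p = 0.000295). A second Kcng1 probe was above background on no array. Kcnv2, the partner of Kcnb subunits in photoreceptors, was not well above background on any GFP array and was so on all 4 Nr4a1-labelled arrays. Its levels of 0.34, 0.20, 0.29 and 0.19 in GFP and 0.86, 0.72, 0.80 and 0.69 in the other group give at least a 1.4-fold higher Cy5 signal. The gene was tested only because of its signal in the Nr4a1-labelled group, so no p-value is given for it. The bound sets the mean of the bright group against a floor for each GFP array. That floor is the lowest signal counted as well above background on the array, or the probe's own value where higher. The reference channel gave no signal above background on any array for 8 of the 9 tested silent subunits, Kcng1 being the exception, so their ratios have a denominator near background. Kcnf1 (0.13 ± 0.12), Kcng4 (0.09 ± 0.06) and Kcns2 (-0.08 ± 0.06) had overlapping groups. Kcng3 was not tested, being above background on no array.

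**Figure D2:**
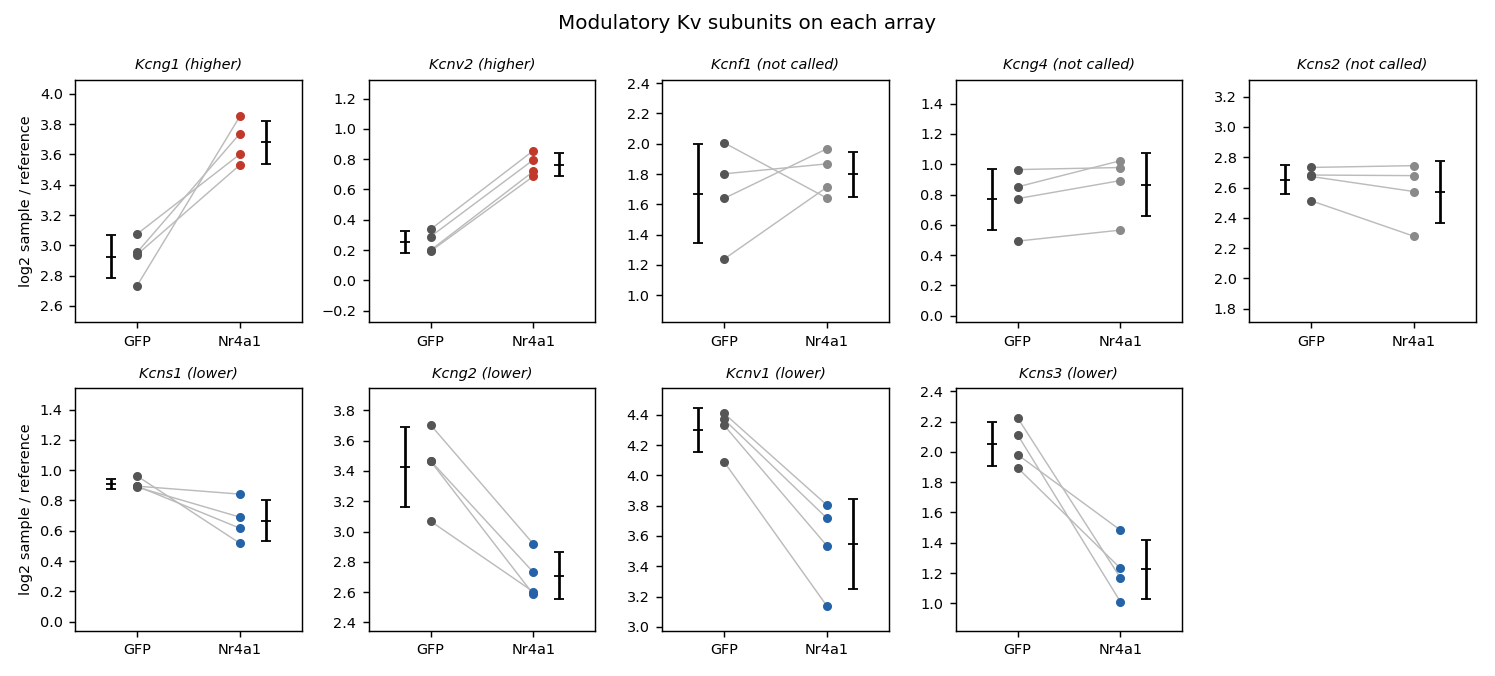
Level of the 9 tested electrically silent Kv subunits on each array, as log2 of culture over reference (y axis, the same span in each panel), for the GFP and the Nr4a1-labelled group. Points are arrays, lines join labelled pairs, and bars beside them are the mean and SD of 4 arrays. Kcng1 and Kcnv2, the latter not above background in GFP, lie higher and Kcns3, Kcnv1, Kcng2 and Kcns1 lower in every pair.

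The subunits that form the voltage-gated pores differed less than the silent subunits, and their share called was close to the 24.4% of all features. Of 27 members in the Kcna, Kcnb, Kcnc, Kcnh and Kcnq families, 23 were tested, Kcnq1 and Kcnh5 rose, Kcna1, Kcnh3 and Kcnh8 fell, and 18 did not pass the test. Kcnb2, a delayed rectifier pore with which silent subunits assemble, differed by 0.02 ± 0.08 with overlapping groups (limma adjusted p = 0.905). Among the Kcna subunits, which act on axons and set the threshold for firing, only Kcna1 passed the test among the 7 tested. It read 6.58, 6.40, 6.65 and 6.52 in GFP and 6.45, 6.08, 6.34 and 6.21 in the other group. The ranges overlapped, and the fall (-0.27 ± 0.06, limma adjusted p = 0.0108) was -0.05 with Agilent's own processed ratio. Kcna2 (-0.03 ± 0.09) had overlapping groups as well. Kcna4, a subunit of A-type current, was higher on every Nr4a1-labelled array than on any GFP array, but the difference of 0.12 ± 0.06 did not pass the test (limma adjusted p = 0.167). It was called higher with Cy5 intensity alone (0.30).

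None of the 4 Kcnc subunits, which allow fast spiking, passed the test. Kcnc1 has 3 probes above background on all arrays, and they disagree. The brightest, used here, gave 0.10 ± 0.08 (limma adjusted p = 0.378), while the others gave -0.14 ± 0.06 and -0.29 ± 0.08. Kcnq3 and Kcnq5 are among the subunits that carry the M-current, the slow current that restrains repetitive firing. Kcnq3 differed by -0.17 ± 0.07 (limma adjusted p = 0.119) and Kcnq5 by 0.16 ± 0.08 (limma adjusted p = 0.174), each with overlapping groups. With Cy5 intensity alone Kcnq3 was called lower (-0.26) and Kcnq5 higher (0.61). Kcnq5 was also called higher with median centring (0.27), while its lowest value over the settings was -0.25. Kcnq1, the family member known from heart and epithelia, read -0.27, -0.26, -0.16 and -0.33 in GFP and 0.42, 0.43, 0.19 and 0.29 in the Nr4a1-labelled group. These ranges are apart, at 1.50-fold higher (0.59 ± 0.07, limma adjusted p = 0.000313), with 3 of 4 GFP arrays above background. Kcnq1ot1, the noncoding antisense transcript from the Kcnq1 locus, had a probe of its own that differed by 0.11 ± 0.07 and did not pass the test.

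The Kcnh genes encode the Eag, Erg and Elk channels, slow voltage-gated channels that act near threshold. The Elk gene Kcnh8 read 0.81, 0.80, 0.43 and 0.65 in GFP and 0.13, 0.01, -0.02 and 0.18 in the Nr4a1-labelled group, where 2 of 4 arrays were above background. It was 1.51-fold lower with no overlap (-0.60 ± 0.07, limma adjusted p = 0.000275), and its other probe was above background on no array. Kcnh3, an Elk channel of forebrain neurons, read 4.15, 4.15, 4.13 and 3.96 in GFP and 3.79, 3.39, 3.43 and 3.91 in the other group. Its fall of 1.38-fold (-0.47 ± 0.11, limma adjusted p = 0.0102) was uneven, since the batch 2 pair differed by -0.05. The Eag gene Kcnh5 read 0.04, 0.43, 0.13 and 0.36 in GFP and 0.49, 0.44, 0.63 and 0.49 in the Nr4a1-labelled group. Its rise of 0.27 ± 0.09 lay close to the threshold (limma adjusted p = 0.0469), the nearest arrays of both groups almost met, and the sign turned to -0.16 with Cy5 intensity alone. The call was lost without replicate 1, 3 or 4. Kcnh2, the Erg channel also known from heart, differed by -0.16 ± 0.06 without overlap but did not pass (limma adjusted p = 0.0837).

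Of the cytoplasmic beta subunits that bind Kcna channels, Kcnab1 fell and Kcnab2 (-0.09 ± 0.09) and Kcnab3 (0.04 ± 0.10) did not pass the test. Kcnab1, which speeds inactivation, read 1.29, 1.37, 1.39 and 1.19 in GFP and 0.85, 0.86, 0.87 and 0.95 in the Nr4a1-labelled group. The Nr4a1-labelled arrays all lay below the GFP arrays, at 1.34-fold lower (-0.43 ± 0.07, limma adjusted p = 0.00135). The Kcne genes encode short membrane subunits that modify Kv pores. Of their 5 members 2 were tested, Kcne1l at 0.00 ± 0.06 and Kcne3 at -0.13 ± 0.07, and neither passed.

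Inward rectifier genes moved in both directions. Of 15 Kcnj genes, 9 were tested. Kcnj10 and Kcnj16 rose, Kcnj4 and Kcnj12 fell, and 5 did not pass the test. The share called was 44.4%, against 24.4% of all features, and these shares were not tested against each other. Kcnj10, the main inward rectifier of astrocytes and oligodendrocytes, read 6.81, 6.78, 6.84 and 6.50 in GFP and 7.30, 7.24, 7.19 and 7.08 in the Nr4a1-labelled group. No array of one group reached the other, at 1.39-fold higher (0.47 ± 0.06, limma adjusted p = 0.000479). The sign changed with the processing, the difference being -0.34 with Agilent's own processed ratio and -0.15 with all spots kept. Kcnj16, which assembles with Kcnj10, read 1.91, 1.77, 2.07 and 1.58 in GFP and 2.00, 2.41, 2.38 and 2.09 in the other group. The ranges overlapped, with replicate 1 lowest among the Nr4a1-labelled arrays, at 1.31-fold higher (0.39 ± 0.09, limma adjusted p = 0.00916), and with all spots kept the difference was -0.07.

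Markers of glia were measured beside these genes. Of 15 astrocyte markers 3 rose (Aqp4 by 0.43 ± 0.10, Gja1 by 0.37 ± 0.08 and Sox9 by 0.34 ± 0.07), none fell, and 12 did not pass the test, Gfap at -0.16 ± 0.07 and Slc1a3 at -0.04 ± 0.06 among them. Their mean level lay between 3.46 and 3.59 on the GFP arrays and between 3.54 and 3.64 on the Nr4a1-labelled arrays. Of 12 tested markers of the oligodendrocyte lineage 5 rose, Pdgfra at 0.75 ± 0.06 and Olig2 at 0.39 ± 0.06 among them, and Mbp (-0.94 ± 0.09) and Mag fell. The mean level of that list lay between 0.73 and 0.86 in GFP and between 0.94 and 0.99 in the Nr4a1-labelled group. Its median difference was -0.03, so the higher mean does not describe the list as a whole. Over all features tested, 12.9% rose and 11.5% fell, and neither marker list was tested against these shares. The part of these markers in the Kcnj10 and Kcnj16 differences was not tested.

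Kcnj4 and Kcnj12 encode strong inward rectifiers of the same family as Kcnj2, which hold neurons near their resting potential. Kcnj4 read 4.02, 3.97, 4.10 and 3.96 in GFP and 3.53, 3.26, 3.64 and 3.41 in the Nr4a1-labelled group. The GFP arrays were close together and all above the others, a 1.47-fold lower level (-0.55 ± 0.06, limma adjusted p = 0.000196). Kcnj12 read 3.30, 3.31, 3.32 and 3.51 in GFP and 3.26, 2.98, 2.89 and 3.00 in the other group, and the groups only just separated. Its fall was 1.26-fold (-0.33 ± 0.08, limma adjusted p = 0.0143) and lost the call without replicate 3 or without replicate 4. Kcnj2 itself was above background on 1 array and was not tested. The Kcnj3, Kcnj6 and Kcnj9 subunits form the channels that G proteins open, and they differed by 0.03 ± 0.07, -0.04 ± 0.06 and -0.01 ± 0.06. For Kcnj3 the limma adjusted p was 0.799, and for Kcnj6 and Kcnj9 it was 0.702 and 0.959, each with overlapping groups.

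Promoter sequence was available for part of the set, as windows from 250 bases before to 50 bases after the annotated start in RefSeq (GRCm38.p6). Windows matched 64 of the 89 members, 84 windows in all, and 13 of the 22 called genes, with 22 windows. They were searched on both strands for AAAGGTCA, the monomer element that NR4A receptors bind, and for AGGTCA, the nuclear receptor core that lies within it. None of the 22 windows of called members held AAAGGTCA, and 1 of the 65 windows of tested members did, against 1.13% of windows of tested genes. That window belongs to Kcnh1, an Eag channel gene whose own difference was -0.12 ± 0.07 without a call (limma adjusted p = 0.257). AGGTCA was found in 1 of the 22 windows of called members, that of Kcnj16 with 2 matches. It was in 4 of the 65 windows of tested members, against 13.1% of windows of tested genes. A search for TGACGTCA, the cAMP response element, found it in 0 of the 65 windows of tested members and in 2.76% of windows of tested genes. A match is a string of letters and not a binding site, and a window without one says nothing about more distant sequence. The sequences below are the 250 bases upstream of Kcnj16, which holds both matches, those of its partner gene Kcnj10, those of Kcns3, which fell most, and the 60 bases around the Kcnh1 match. They lie at chr11:110967783-110968032 (plus strand), chr1:172340960-172341209 (plus strand), chr12:11150843-11151092 (minus strand) and chr1:192190534-192190593 (plus strand). Each is written 5′ to 3′ on the strand of its gene, and capitals mark the matches on either strand.
Kcnj16: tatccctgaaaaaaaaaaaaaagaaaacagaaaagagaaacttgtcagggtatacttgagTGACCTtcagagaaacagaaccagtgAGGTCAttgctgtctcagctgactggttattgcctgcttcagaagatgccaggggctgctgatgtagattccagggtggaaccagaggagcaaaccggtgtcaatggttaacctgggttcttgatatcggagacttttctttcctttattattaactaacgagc
Kcnj10: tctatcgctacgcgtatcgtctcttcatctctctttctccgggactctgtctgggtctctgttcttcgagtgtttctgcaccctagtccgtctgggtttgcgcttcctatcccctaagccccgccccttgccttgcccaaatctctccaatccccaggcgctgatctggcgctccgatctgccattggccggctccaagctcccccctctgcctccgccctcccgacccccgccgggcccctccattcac
Kcns3: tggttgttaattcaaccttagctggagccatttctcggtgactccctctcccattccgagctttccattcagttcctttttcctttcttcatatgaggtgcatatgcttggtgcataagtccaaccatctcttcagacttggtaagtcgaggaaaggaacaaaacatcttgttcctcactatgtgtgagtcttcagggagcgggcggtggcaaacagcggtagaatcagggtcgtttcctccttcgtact
Kcnh1: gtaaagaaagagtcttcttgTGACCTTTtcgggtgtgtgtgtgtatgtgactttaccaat
In Kcnj16 the matches start at -190, where the core is on the opposite strand, and at -164. The Kcnh1 match starts at -223 on the opposite strand. The Kcnj10 and Kcns3 stretches hold no capitals because neither string occurs in them.

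Among the tandem-pore leak channels, 11 of 14 Kcnk genes were tested, Kcnk3 rose, Kcnk2 and Kcnk4 fell, and 8 did not pass the test. The share called was 27.3%, close to the 24.4% of all features. Kcnk2 and Kcnk4 encode the channels known as TREK-1 and TRAAK, which open with membrane stretch and polyunsaturated fatty acids. Kcnk4 read 0.96, 0.91, 1.05 and 0.85 in GFP and 0.30, 0.40, 0.48 and 0.34 in the Nr4a1-labelled group. A wide gap lay between the groups, at 1.48-fold lower (-0.56 ± 0.06, limma adjusted p = 0.000121), and a second probe gave -0.83 ± 0.08. Kcnk2 read 1.00, 1.24, 1.03 and 0.93 in GFP and 0.62, 0.51, 0.69 and 0.49 in the other group, also without overlap, at 1.39-fold lower (-0.47 ± 0.07, limma adjusted p = 0.00137). Kcnk10, the other member of that branch, differed by -0.12 ± 0.07 with overlapping groups (limma adjusted p = 0.294). Kcnk3, the acid-sensitive TASK-1 channel, read 1.25, 1.37, 1.55 and 1.07 in GFP and 1.64, 1.78, 1.70 and 1.47 in the Nr4a1-labelled group. It was 1.26-fold higher (0.34 ± 0.07, limma adjusted p = 0.00469), with 1 Nr4a1-labelled array inside the GFP range, and with all spots kept the difference was -0.01. Kcnk1, a weakly conducting member present in neurons and astrocytes, differed by 0.01 ± 0.06 (limma adjusted p = 0.932).

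**Figure D3:**
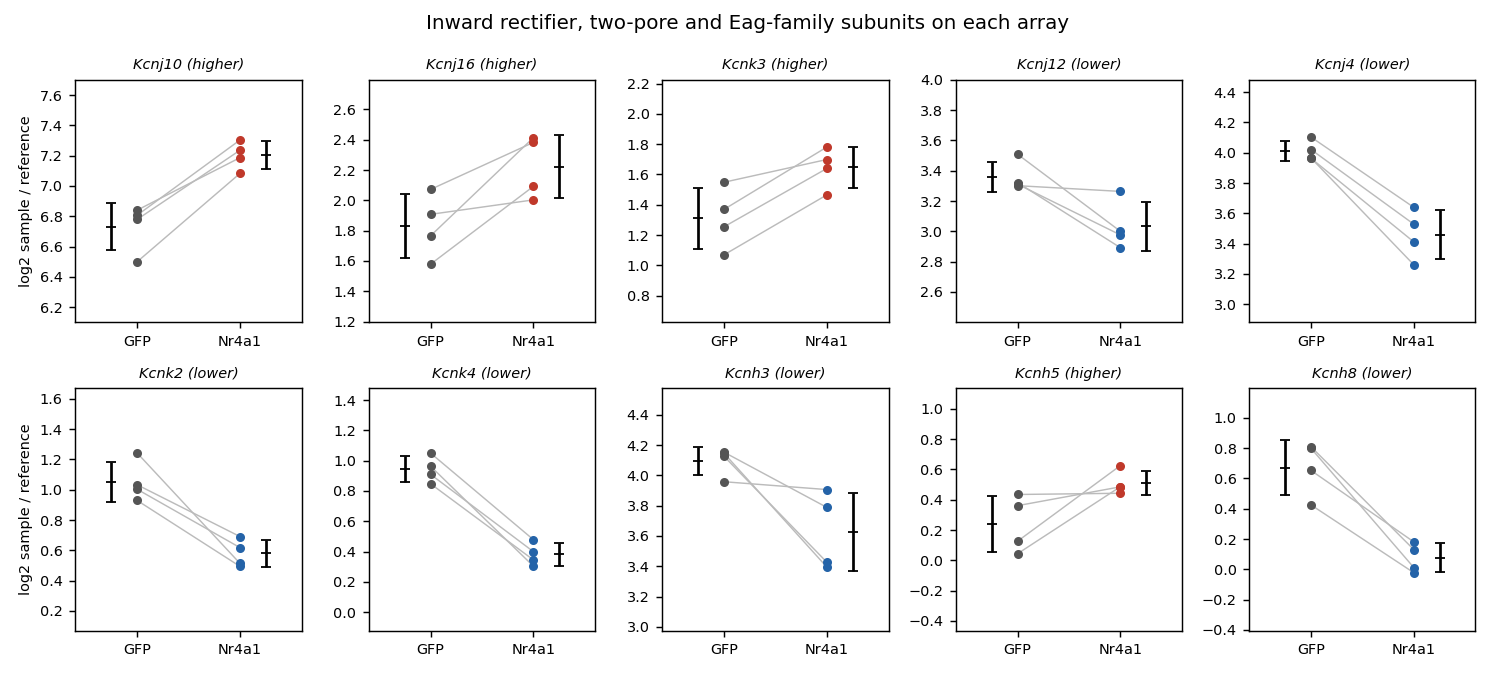
Level of the called inward rectifier (Kcnj), tandem-pore (Kcnk) and Eag-family (Kcnh) genes on each array, as log2 of culture over reference (y axis, the same span in each panel). Points are arrays, lines join labelled pairs, and bars are the mean and SD of 4 arrays. Kcnj4, Kcnk2, Kcnk4 and Kcnh8 show separate groups, while the groups of Kcnj16 and Kcnk3 overlap.

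The Kcnma1, Kcnn and Kcnt channels, with the accessory Kcnmb subunits and the related Kcnu1, a channel of sperm opened by voltage and alkaline pH, made up 12 members. Of these 9 were tested, Kcnn3 and Kcnt1 rose, Kcnt2 fell, and 6 did not pass the test. Over all features tested, 24.4% were called, and this set was not tested against that share. Kcnt1 and Kcnt2 encode the sodium-activated channels Slack and Slick. Kcnt1 read 2.20, 2.31, 2.41 and 2.22 in GFP and 2.70, 2.49, 2.69 and 2.29 in the Nr4a1-labelled group, with 1 of the latter inside the GFP range. Its rise of 0.26 ± 0.08 (limma adjusted p = 0.032) lost the call without the pair block and without replicate 1, 2 or 3, and the difference was -0.20 with all spots kept. Kcnt2 read 0.85, 0.84, 0.81 and 0.85 in GFP and 0.67, 0.32, 0.71 and 0.60 in the other group, separate but with replicate 2 far below. That fall of 0.26 on the log2 scale (-0.26 ± 0.08, limma adjusted p = 0.0297) lost the call without replicate 1, 2 or 4. Kcnn2 and Kcnn3 encode small-conductance calcium-activated channels, which shape the afterhyperpolarization. Kcnn3 read 0.82, 1.06, 0.75 and 0.62 in GFP and 1.4, 1.02, 1.07 and 1.05 in the Nr4a1-labelled group, where replicate 1 stood highest and replicates 2 and 4 lay inside the GFP range. The rise was 0.32 ± 0.09 (limma adjusted p = 0.0289) and lost the call without replicate 1, 3 or 4. Kcnn2 read 5.79, 5.69, 5.79 and 5.41 in GFP and 6.11, 5.71, 5.93 and 6.09 in the other group. Its difference of 0.29 ± 0.10 missed the threshold (limma adjusted p = 0.0532). It was called higher without replicate 2 (0.38), with median centring (0.39) and with Cy5 alone (0.58), and called lower with Agilent's own processed ratio (-0.52). Kcnma1, the pore of the large-conductance BK channel, differed by -0.18 ± 0.11 (limma adjusted p = 0.269) and its neuronal beta subunit Kcnmb4 by -0.13 ± 0.08 (limma adjusted p = 0.237), both with overlapping groups. Kcnma1 was called lower without replicate 1 (-0.33) and in the authors' deposited table (-0.21).

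The remaining 21 members were not tested. Of these, 16 were above background on no array, among them Kcna10, Kcne1, Kcne2, Kcne4, Kcng3, Kcnh6, Kcnh7, Kcnj1, Kcnj13, Kcnj14, Kcnj5, Kcnk18, Kcnk7, Kcnmb4os1 and Kcnn1. Kcnj2 and Kcnj8 were above background on 1 array each, and Kcnk5, Kcnmb1 and Kcnmb3 on 2. A signal not above background does not show that a gene is silent. Kcnn1 and Kcnh7, a small-conductance and an Erg channel gene that neurons are known to express, therefore have no usable value here. Among the tested members, 59 were above background on all 8 arrays. The reference RNA gave a signal above background on all 8 arrays for 31 of the 68 and on none for 20, so the ratio of those 20 has a denominator near background.

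Genes whose products bind, anchor or regulate potassium channels were counted from a list of 49 assembled from general knowledge. Of the 46 tested, 7 rose, 9 fell and 30 did not pass the test, with a median difference of -0.03. Over all features tested, 12.9% rose and 11.5% fell, and the list was not tested against these shares. The largest rise was that of Lgi4, a secreted ligand of the Adam22 family, at -0.61, -0.67, -0.65 and -0.53 in GFP and 0.72, 0.59, 0.25 and 0.88 in the Nr4a1-labelled group (1.23 ± 0.08, limma adjusted p = 7.63e-06). Gnb4, a G protein beta subunit of the kind that opens Kcnj3 and Kcnj6 channels, read -0.15, -0.36, -0.52 and -0.17 in GFP and 0.95, 0.73, 0.79 and 0.70 in the other group. Both genes had groups far apart, Gnb4 with a rise of 1.09 ± 0.07 (limma adjusted p = 7.72e-06), while the related Gnb2 fell (-0.31 ± 0.06, limma adjusted p = 0.00382). Lingo1, a neuronal membrane protein that binds BK channels, rose by 0.83 ± 0.07 (limma adjusted p = 3.39e-05), but stood at -0.01 with Agilent's own processed ratio. Rgs7bp, the membrane anchor of regulators that close G protein-gated channels, rose by 0.48 ± 0.07. Csnk2a1, a kinase subunit, rose by 0.23 ± 0.06, as did the protease Bace1, and Adam23, a receptor of Lgi1, by 0.22 ± 0.06. Csnk2a1 lost its call without replicate 1, 2 or 4, Bace1 without replicate 2 or 4, and Adam23 without replicate 1, 3 or 4.

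Falls among the partner genes were led by Lrrc55, an auxiliary gamma subunit of the BK channel, with -0.65 ± 0.06 (limma adjusted p = 4.96e-05). Cntn2, an adhesion protein that gathers Kcna channels beside the node of Ranvier, fell (-0.55 ± 0.07, limma adjusted p = 0.000539), as did Stx1a, a syntaxin that binds Kv channels (-0.54 ± 0.06, limma adjusted p = 0.000279). The groups of all 3 genes were separate. Smaller falls included those of Lgi3 (-0.42 ± 0.09), Calm2, a calmodulin gene (-0.32 ± 0.06), the scaffold Dlg4 (-0.26 ± 0.06) and Lgi1, a secreted ligand of Adam22 (-0.25 ± 0.07). Dlg4 lost its call without replicate 1 or 2 and Lgi1 without replicate 2 or 3, and Lgi1 turned to 0.06 with Agilent's own processed ratio. Lrrc26, Lrrc52 and Abcc9 were not tested.

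**Figure D4:**
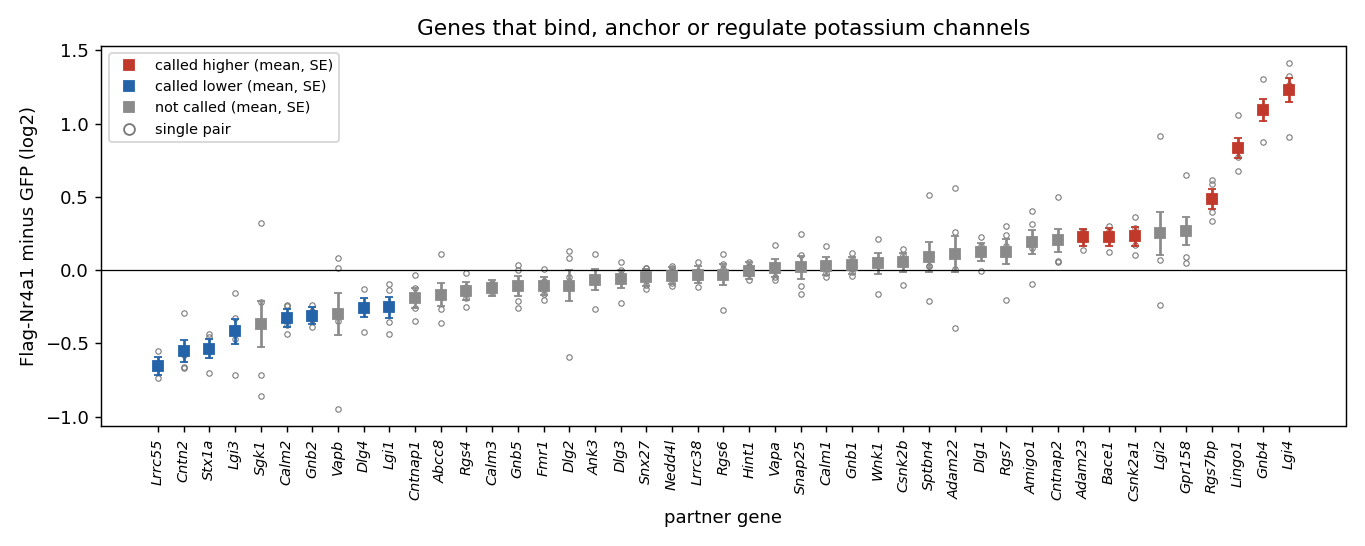
Differences of most of the partner genes tested, Nr4a1-labelled minus GFP on the log2 scale (y axis), in order of size (x axis). Squares are fitted means with SE over 4 pairs, coloured by call, and open circles are single pairs. Lgi4, Gnb4 and Lingo1 stand highest and Lrrc55, Cntn2 and Stx1a lowest among the called genes, with most others near 0.

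The 22 called members differed in how far their calls held over 16 other settings. With slide as a random block all 22 were lost, and with every spot kept in the background correction Kcnk4 alone was still called. Apart from those settings, 5 genes above background in both groups kept their call wherever they were tested, namely Kcng1, Kcnj4, Kcnk4, Kcnq1 and Kcns3. Kcnq1 was not tested where a signal on all 8 arrays was required. The sign of the difference was the same under every setting for 17 of the 22, Kcnv2 among them. It turned in at least 1 setting for Kcnh5, Kcnj10, Kcnj16, Kcnk3 and Kcnt1.

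**Figure D5:**
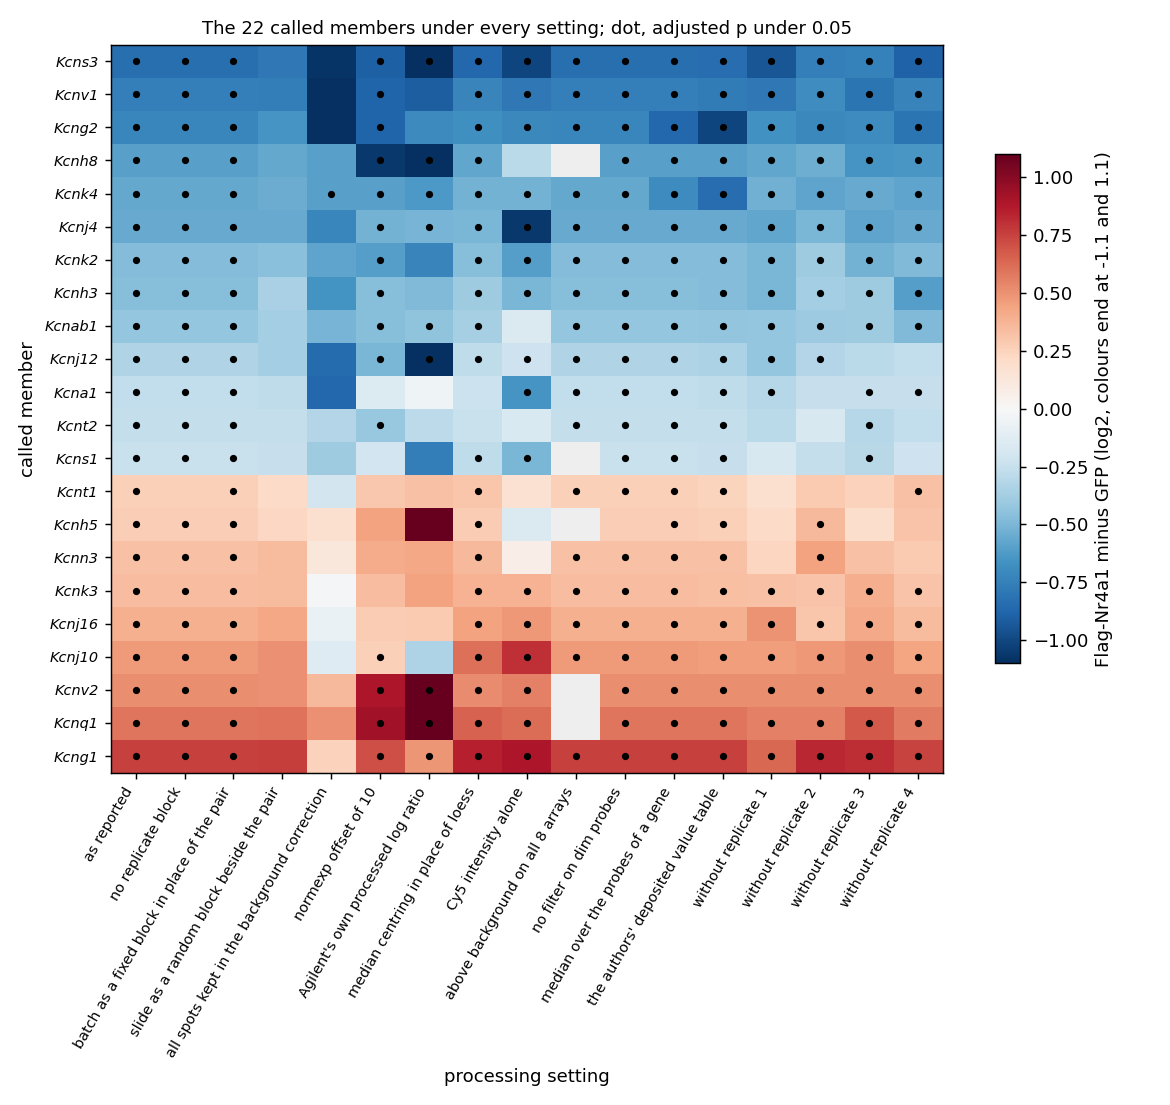
Difference of the 22 called members (y axis) under each processing setting (x axis), Nr4a1-labelled minus GFP on the log2 scale, in colour, with dots where the adjusted p was under 0.05 and grey cells where the gene was not tested. The column with slide as a random block has no dot, and the column with all spots kept has a dot for Kcnk4 only.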

How the data were processed

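The files are the scanner output of 8 Agilent arrays plus a table of processed values. Per the file headers, Agilent Feature Extraction 11.0.1.1 made the deposited intensity of each spot in both channels and a log10 ratio of Cy5 over Cy3. The submitters' processing notes name limma as well. The value table was deposited by the authors as log2 ratios, a scale read from its slope of 0.992 to 1.01 against the arrays (column medians 0.024 to 0.031), and it served as an alternative. No dye swap was made.

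Median intensities were corrected with normexp (offset 50) and normalized by loess within arrays in limma 3.58.1 (R 4.3.3), with control spots at weight 0. Spots flagged as outliers and spots with a non-uniform local background (0 to 37 per array) were left out, a choice made after these data had been seen. Spots of a probe were averaged, and a gene with several probes was represented by the one with the highest mean Cy5 signal. Testing required Cy5 well above background on 4 or more arrays and 3 or more values per group. The fit (lmFit, eBayes) had the pair as a block, and p-values were adjusted by Benjamini-Hochberg over all 21116 features. The offset pulls ratios of dim probes towards 0. The script was tested on simulated data.

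The pairing comes from the label's pair tag. Deviations from the group means correlated within pairs at -0.10, 0.28, -0.02 and 0.42. Of 39429 probes, 26581 were named through their accession in RefSeq's GRCm38.p6 table and 12848 were not, and the unnamed were tested as features of their own. Members and lists were chosen with earlier results of these data known. Named in the text are the called members and partner genes, the untested members, and a set of subunits with main roles in hippocampal cells whatever they showed, except that a few of these genes are counted but not reported here by name; Kcnb2, Kcnk10, Kcnh1, Kcnh2, Kcnab2, Kcnab3, Kcnf1, Kcng4, Kcns2, Kcnq1ot1 and the Kcne genes were named after their values were seen. The number of arrays limits the precision. Alternatives are given in the closing section.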

Additional observations from a re-analysis of the deposited data

Results flagged for a closer look

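Of 74 groups of 4 arrays examined for named members, 6 held an array whose gap to its nearest neighbour took up most of the range of the group, where chance flags about 1 in 20. On GFP replicate 4, the batch 2 array, Kcna4 stood low at 0.24, Kcnh3 low at 3.96 and Kcnj12 high at 3.51. Kcns1 was high on GFP replicate 1 at 0.96, and Kcnt2 was low on GFP replicate 3 at 0.81, in groups whose other arrays lay very close together. Kcnn3 was high on Nr4a1-labelled replicate 1 at 1.4.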

How the results depend on the processing

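Without a replicate block 8 members rose and 13 fell, and with batch in place of the pair 9 and 13; of the called members only Kcnt1 lost its call without the block, and among the partners Lgi3. With slide as a random block (consensus correlation 0.863) the counts of risen and fallen were 0 and 0 for the members, 0 and 0 for the partner genes and 0 and 0 for the silent subunits, and over all features 8 rose and 4 fell. With all spots kept they were 0 and 1 for the members, 2 and 0 for the partners and 0 and 0 for the silent subunits, with 1.07% of all features called. With Agilent's own ratio they were 3 and 9, 3 and 4, and 2 and 1. An offset of 10 gave 4 rises and 11 falls among the members. Median centring gave 12 and 11 for the members and 11 and 4 for the partners, with 73.3% of all calls being rises against 52.7%. Above background on all 8 arrays, 6 and 11 members were called. Among the silent subunits 1 rose there, and Kcns3, Kcnv1 and Kcng2 kept their falls. The authors' deposited table gave 12 and 17, with none of the 22 called members lost. Its values correlated with those used here at 0.998 or more on every array, so it is no independent check. It was fitted without the filter on dim probes, with 85 members tested. The added calls included Kcna10, Kcnj14, Kcnj2, Kcnmb1 and Kcnn1, which were too dim to be tested in the main fit. Leaving out each replicate gave 6 to 11 rises and 10 to 13 falls among the members, and for the partners 4 to 7 rises, the 4 without replicate 4.

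Signs turned, where at least 1 side was called, in these cases. With all spots kept, Adam23 stood at -0.0089, Kcnj10 at -0.15, Kcnj16 at -0.073, Kcnk3 at -0.011 and Kcnt1 at -0.20. With Agilent's own ratio, Kcnj10 stood at -0.34, Kcnn2 at -0.52, Lgi1 at 0.060 and Lingo1 at -0.0070. Kcnc1 stood at -0.29 as the median over its probes and at -0.31 in the authors' deposited table, where it was called, and Kcnh5 at -0.16 with Cy5 alone. A further 29 changes of sign were between values called in neither setting. The silent subunit counts were added after seeing the data. The cause of these changes was not tested. Kcnh8, Kcnq1, Kcns1, Kcnh5 and Kcnv2 were not above background on every array, and their ratios are the least certain.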

Other observations

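Other channel genes, chosen by symbols beginning with Scn, Cacn or Hcn, offer a frame for the potassium channel counts. That choice takes in auxiliary subunits as well as pores. Of 34 tested sodium, calcium and HCN channel genes, 6 rose, 7 fell and 21 did not pass limma's test, with a median difference of 0.01. Their share called was larger than the 32.4% of the potassium channel members, and 24.4% of all features were called. These shares were not tested against each other. Interneuron markers, given because Kcns3 and the Kcnc subunits are known from fast-spiking interneurons, did not move one way. Of 12 tested, Dlx1 (0.41 ± 0.07) and Dlx2 (0.34 ± 0.06) rose, Sst (-0.24 ± 0.06) and Htr3a (-0.49 ± 0.06) fell, and 8 did not pass, Pvalb at -0.10 ± 0.07 among them. The mean level of the list lay between 2.16 and 2.35 in GFP and between 2.18 and 2.26 in the Nr4a1-labelled group, and its part in the Kcns3 difference was not tested. Of 8 tested microglia markers Csf1r fell and 7 did not pass. Of 9 tested endothelial or mural markers, Cspg4, which the oligodendrocyte lineage list holds too, rose and 8 did not pass.

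Probes of the same gene can differ. The 3 probes of Kcnc1, all above background on all arrays, gave 0.10, -0.14 and -0.29, so the call for this gene depends on which probe stands for it.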
